A study of Mus musculus with 18 samples.

Results

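Type I interferon response genes were followed in the frontal cortex of APP/PS1 mice with and without farnesyltransferase (FT) in forebrain neurons. The 41 genes, well known targets of type I interferon, were chosen by name but with earlier results of these data known. Shares of this list set against all genes therefore describe the list and are not an independent test. The genes were read from a table of 55487 genes, and 40 of them had enough counts to be tested. mRNA was sequenced from 18 mice aged 9 to 10 months, 6 of each of 3 genotypes, with 3 females and 3 males per genotype. APP/PS1 mice carry the amyloid transgenes APPswe and PSEN1dE9 together with homozygous floxed alleles of the FT β-subunit and no Cre. APP/PS1/FTnKO mice carry the same transgenes and floxed alleles plus Cre driven by the CaMKIIα promoter, which acts in forebrain excitatory neurons after birth, so that FT remains in glia, vessels and other neurons of the tissue. WT mice are described by the study as littermates with the floxed alleles and neither the amyloid transgenes nor Cre, whereas the record of the data calls them C57BL/6J, so that their background is not settled. In bulk tissue, fewer cells of a type and less RNA per cell cannot be told apart.

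Type I interferons (interferon-α and -β) bind the receptor pair IFNAR1 and IFNAR2, and the kinases JAK1 and TYK2 then phosphorylate STAT proteins such as STAT2, which joins IRF9 in a complex that binds interferon-stimulated response elements (ISREs) in promoters. The genes switched on in this way include RNA sensors, RNA-binding IFIT proteins, oligoadenylate synthetases that activate RNase L, GTPases that act on pathogen membranes, the ubiquitin-like modifier ISG15, and the factors Irf7, Irf9 and Stat2 of the pathway itself. In the brain, microglia, astrocytes and endothelium respond to interferon, and microglia with an interferon signature are known from amyloid models.

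The letters of the ISRE core (GAAA and GAAA with any 2 bases between them, which reads TTTC and TTTC on the other strand) were looked for in the RefSeq promoters of GRCm38.p6, which run from 250 bases before to 50 bases after each gene start. The promoter table held 31 of the 41 genes, and 19 of the 31 (61.3%) had the letters, against 3.99% of all 27025 genes in that table. The letters TTCNNNGAA of the gamma-activated site, which read the same on both strands, were in 8 of the 31 (25.8%), against 9.55% of all genes. Matches of the ISRE core to overlapping letters were counted separately, and a match describes the letters of a window, not a bound site. The windows below, each of 120 bases and wholly upstream of the gene start, are shown because they belong to the Schlafen gene that was significantly higher in APP/PS1 mice, to a near-identical gene pair whose reads are hard to assign, to the modifier ISG15, to the membrane protein tetherin and to Stat2, with the ISRE letters in capitals and the rest in lower case, 5′ to 3′ on the strand of the gene.
Slfn8 (chr11:83020811-83020930, minus strand): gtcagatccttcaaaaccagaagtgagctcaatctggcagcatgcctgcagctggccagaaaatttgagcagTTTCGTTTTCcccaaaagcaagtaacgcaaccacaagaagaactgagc
Ifit3 (chr19:34583352-34583471, plus strand): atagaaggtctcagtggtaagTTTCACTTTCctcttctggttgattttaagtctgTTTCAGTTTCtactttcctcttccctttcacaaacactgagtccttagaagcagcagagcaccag
Ifit3b (chr19:34607748-34607867, plus strand): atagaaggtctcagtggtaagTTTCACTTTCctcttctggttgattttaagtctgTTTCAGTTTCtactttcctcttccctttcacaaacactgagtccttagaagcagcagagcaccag
Isg15 (chr4:156200820-156200939, minus strand): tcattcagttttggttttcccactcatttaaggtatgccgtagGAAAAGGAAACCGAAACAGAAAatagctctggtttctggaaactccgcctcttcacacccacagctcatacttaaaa
Bst2 (chr8:71537532-71537651, minus strand): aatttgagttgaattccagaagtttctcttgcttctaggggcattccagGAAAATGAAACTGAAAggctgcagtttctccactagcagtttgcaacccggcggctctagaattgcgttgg
Stat2 (chr10:128270248-128270367, plus strand): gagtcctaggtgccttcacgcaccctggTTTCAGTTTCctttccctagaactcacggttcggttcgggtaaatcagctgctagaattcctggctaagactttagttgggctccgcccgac

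The windows of Ifit3 and Ifit3b were identical over all 120 bases, whereas Isg15 carried 3 overlapping matches within 78 bases of its start. In Slfn8 the match lay 48 bases before the start, in Bst2 there were 2 overlapping matches, 130 and 124 bases before it, and in Stat2 a single match lay 222 bases before it. The 19 genes with the ISRE letters had a median log2 fold change of 0.36 in APP/PS1 against WT mice and the 12 matched genes without them 0.25, a description without a test. Lgals3bp, which rose in APP/PS1 mice, had no match in its window.

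The 41 genes lay on 14 chromosomes, and 18 of them had another of the 41 within 500 kb, in 7 groups such as the Ifit genes on chromosome 19 and the Schlafen genes on chromosome 11. Neighbours did not always behave alike: in the Schlafen group Slfn8 had a log2 fold change of 2.11 in APP/PS1 against WT mice, whereas Slfn5 had -0.10. Several of the genes share sequence with close copies, so that their counts depend on how the authors assigned such reads. Of all 100-base stretches of its exons, Oas1a shared 40.9% with other genes (Oas1g), Ifit3 31.7% and Ifit3b 27.4% (mainly with each other), Gbp7 10%, Rtp4 9.28% and Slfn8 3.38%. Another annotated gene overlapped 17 of the 41, such as Phrf1 on the strand opposite to Irf7 and Rnf31 on the strand of Irf9.

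The total counts were 15925432 to 21030935 per mouse, and the RNA integrity number (RIN) of WT mice was 8.5 to 8.8, that of APP/PS1 mice 7.7 to 8.7 and that of APP/PS1/FTnKO mice 7.6 to 8.7. WT mouse 19622, a female that the authors also left out of their tests, stood apart: the summed level of 10 cerebellum markers was 3257 CPM (counts scaled to the library total) against 50.9 to 124 CPM in the other 17 mice, and that of 8 markers of excitatory cortical neurons was 581 CPM against 3968 to 7110 CPM. It was kept out of the main comparisons, which rest on 5 WT mice, and its values are given separately. App was at 2117 to 3640 CPM in the 12 mice with transgenes and at 1492 to 1613 CPM in WT mice, while Fntb, the gene of the FT β-subunit, was at 7.84 to 14.7 CPM (median 12.6) with neuronal FT deleted and at 14.2 to 32.1 CPM (median 15.8) in APP/PS1 mice.

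Per kilobase of exon, the most abundant of the 41 genes were small membrane proteins. Over the 17 mice the mean level was 23.4 RPKM (CPM per kilobase of exon) for Ifi27, a mitochondrial and nuclear membrane protein, and 15.5 RPKM for Ifitm3, which blocks the entry of viruses. Lgals3bp, a secreted glycoprotein that binds galectins, followed with 10.9 RPKM, then Stat2 with 7.41 RPKM and Ifit3 with 5.76 RPKM. At the other end, Slfn8 stood at 0.217 RPKM, the GTPase Mx1 at 0.176 RPKM, Ifi44 at 0.171 RPKM and the nucleic acid sensor Zbp1 at 0.0938 RPKM. Zbp1 had 1 to 14 counts per mouse and did not pass the filter on low counts.

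The interferons themselves were at or near 0. Of 19 interferon genes looked for, 14 had no read in any of the 17 mice, Ifnb1 among them, and the other 5 (Ifna13, Ifnab, Ifne, Ifnz and Ifng) had 1 to 5 reads in all mice together. At this depth a count of 0 in a mouse allows up to 3 reads, so low interferon expression was not detectable. How reads that fit several genes were counted is not given, and shared sequence among the interferon genes was not measured. A count of 0 can therefore also come from how reads were assigned. The receptor genes were well expressed, with a mean of 61.1 ± 5.44 CPM for Ifnar1 in WT mice (SD, n = 5) and 63.9 ± 3.12 CPM in APP/PS1 mice (n = 6).

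The comparison of APP/PS1 with WT mice asked which of these genes go with the amyloid transgenes. Slfn8 and Lgals3bp were significantly higher in APP/PS1 mice, that is 2 of the 40 genes tested, and none was lower; of all 17414 genes tested, 1.32% were higher and 0.178% lower at the same adjusted p of 0.05. The fitted log2 fold change was above 0 for 36 of the 40 genes, against 49.4% of all genes, with a median of 0.34 against -0.0023 over all genes. It ranged from -0.24 (Rsad2) to 2.11 (Slfn8), and its standard error had a median of 0.24. At an unadjusted p under 0.05, 14 of the 40 (35%) were higher, against 7.91% of all genes, and 0 were lower, against 6.05%. Without APP/PS1 mouse 16975, 9 were higher, against 5.76% of all genes.

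**Figure D1:**
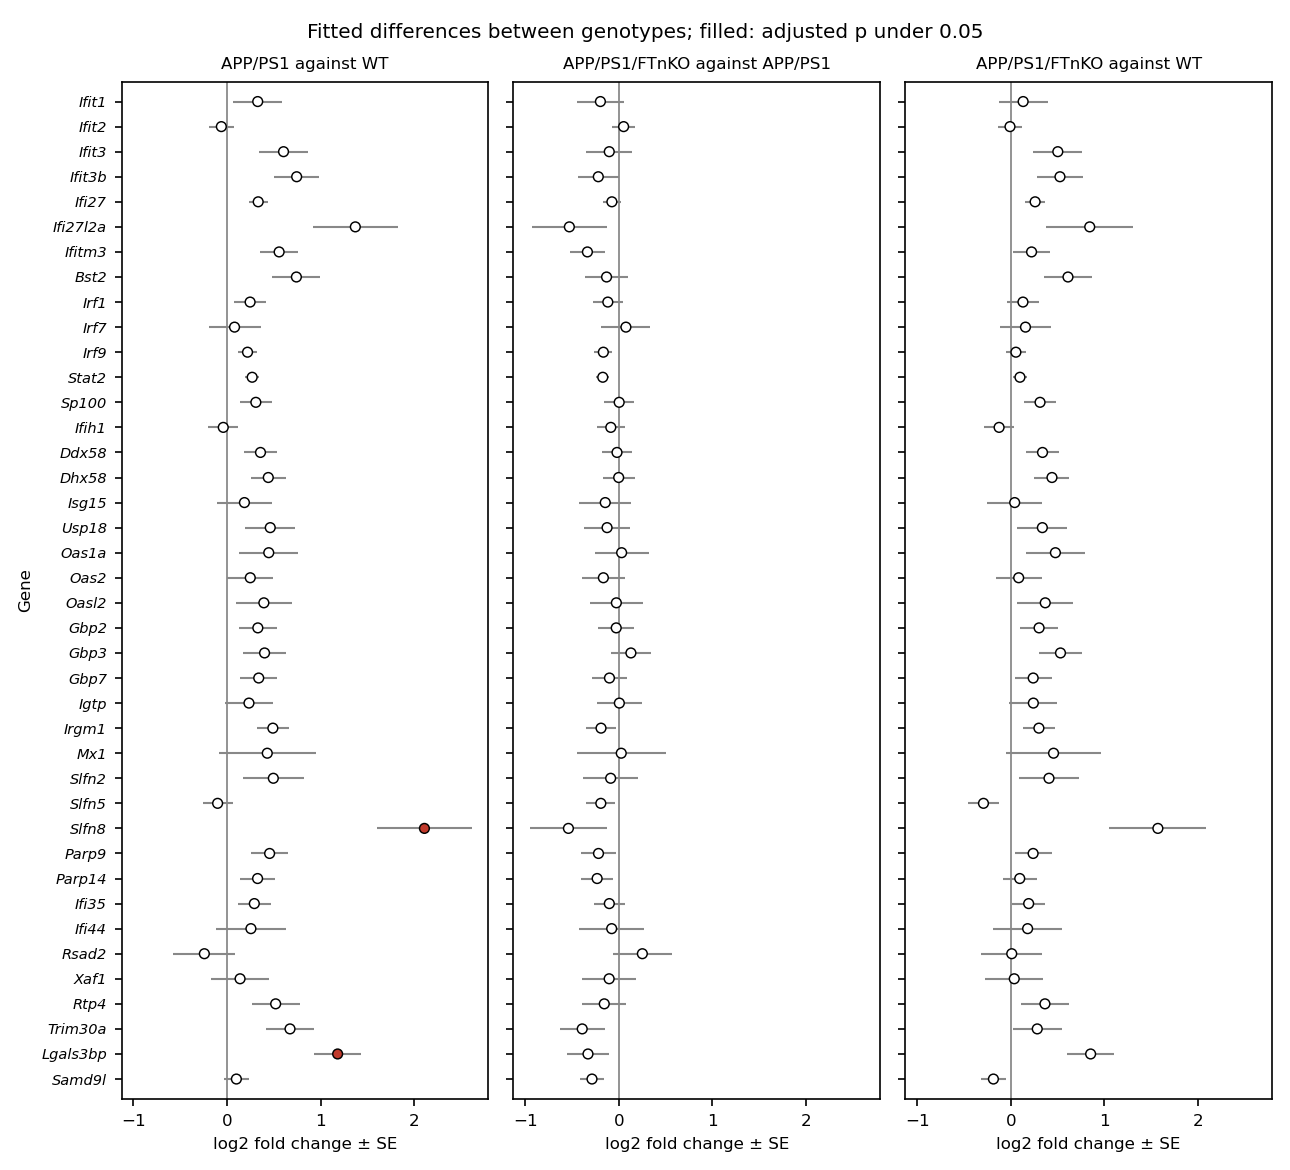
Fitted log2 fold change with its standard error for each of the 40 tested genes (rows, in groups by role) in APP/PS1 against WT, APP/PS1/FTnKO against APP/PS1 and APP/PS1/FTnKO against WT mice, with filled points for an adjusted p under 0.05. Only Slfn8 and Lgals3bp in APP/PS1 against WT mice are filled; 36 of 40 points lie above 0 against WT in each of the genotypes with transgenes, and 32 of 40 lie below 0 between those genotypes.

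Slfn8 (ENSMUSG00000035208; chromosome 11, 83002158 to 83020810, minus strand, GRCm38), a member of the Schlafen family that is induced in immune cells, had 4, 6, 7, 5 and 6 reads in WT mice 18944, 19053, 19101, 19718 and 19721, the order in which WT values are given throughout. APP/PS1 mice 16975, 19553, 19554, 19619, 19723 and 19744 had 59, 10, 19, 15, 27 and 9 reads, and APP/PS1/FTnKO mice 16974, 18943, 18973, 19394, 19720 and 19722 had 27, 19, 13, 15, 9 and 20 reads. As normalised levels these were 0.237, 0.333, 0.427, 0.250 and 0.310 CPM in WT mice, 0.529 to 3.66 CPM (median 0.882) in APP/PS1 mice and 0.435 to 1.61 CPM (median 0.849) in APP/PS1/FTnKO mice. Every mouse with transgenes lay above every WT mouse, and APP/PS1 mouse 16975 lay far above the others. The log2 fold change in APP/PS1 against WT mice was 2.11 (SE 0.50), with an adjusted p of 0.043 by edgeR and 0.00344 by DESeq2. No other of the 40 genes had groups without overlap in this comparison. That is 2.5% of the 40 upwards and 0 downwards, against 1.71% and 0.695% of all genes. The 5 WT mice were all under the level of 0.558 CPM that the filter asks for, so that Slfn8 was tested only because it was higher in the other mice; it was also higher with no filter (adjusted p = 0.00229, edgeR). Without mouse 16975 its log2 fold change was 1.47 and it was not called, nor was it called without APP/PS1 mouse 19723 or 19554, without APP/PS1/FTnKO mouse 18943, 19394 or 19722, or without any of the 5 WT mice. With WT mouse 19622 included (6 reads) it was 2.08 (adjusted p = 0.0319, edgeR).

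Lgals3bp (ENSMUSG00000033880; chromosome 11, 118392751 to 118402092, minus strand) had 15.4, 19.2, 21.9, 14.1 and 17.2 CPM in the 5 WT mice. It had 19.6 to 62.4 CPM (median 40.5) in APP/PS1 mice and 20.1 to 40.1 CPM (median 34.4) in APP/PS1/FTnKO mice. The groups overlapped through single mice, since APP/PS1 mouse 19744 (19.6 CPM) and APP/PS1/FTnKO mouse 18973 (20.1 CPM) lay below the highest WT mouse. The log2 fold change in APP/PS1 against WT mice was 1.18 (SE 0.25), with an adjusted p of 0.02 by edgeR and 0.00165 by DESeq2. Without mouse 16975 it was 0.92 and was not called, nor was Lgals3bp called without APP/PS1 mouse 19723 or without WT mouse 18944, 19053 or 19718. With mouse 19622 included (18.8 CPM) it was 1.19 (adjusted p = 0.0143, edgeR), and the median of the 40 genes remained 0.34.

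**Figure D2:**
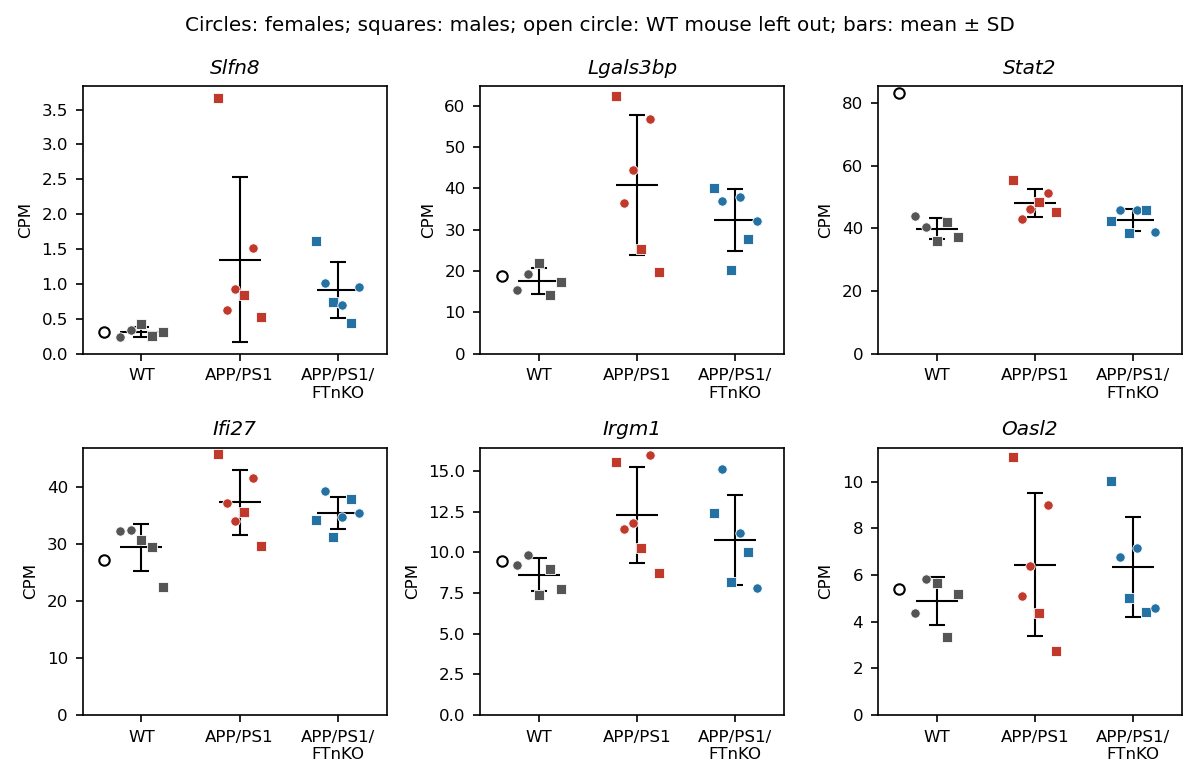
CPM of 6 of the genes in each mouse by genotype, with the mean and SD as bars, females as circles, males as squares and WT mouse 19622 as an open circle outside the mean. Slfn8 separates the WT mice from all mice with transgenes, Lgals3bp overlaps through the lowest mouse of each transgenic genotype, and Stat2 in mouse 19622 (83.2 CPM) lies above all others.

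Among the transcription factors and nuclear proteins, all 5 had a log2 fold change above 0 in APP/PS1 against WT mice and 0 of 5 passed the test by edgeR. Stat2, which activates transcription in the complex with IRF9, was at 43.95, 40.3, 35.96, 42.2 and 37.4 CPM in the 5 WT mice and at 43.0 to 55.4 CPM (median 47.3) in APP/PS1 mice, so that the groups overlapped only by APP/PS1 mouse 19553. Its log2 fold change was 0.27 (SE 0.0755), with an adjusted p of 0.0934 by edgeR and 0.0343 by DESeq2, so that this call depends on the tool; with mouse 19622, which had 83.2 CPM, it was 0.05. Irf9, which brings DNA binding to that complex, had a log2 fold change of 0.22, Irf1 0.25, the nuclear body protein Sp100 0.31 and Irf7, which drives later interferon-α expression, 0.08.

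The 4 small membrane proteins also had log2 fold changes above 0 without passing the test. Ifi27 was at 32.2, 32.4, 30.8, 29.4 and 22.4 CPM in WT mice and at 29.7 to 45.8 CPM (median 36.4) in APP/PS1 mice. The difference on the log2 scale was 0.33 (SE 0.10, adjusted p = 0.145, edgeR). Ifi27l2a, its smaller relative, had the largest fold change after Slfn8, 1.37 (SE 0.45, adjusted p = 0.178, edgeR), and the widest spread, from 0.235 CPM in APP/PS1 mouse 19744 to 3.35 CPM in mouse 16975. Bst2 (tetherin), which holds budding virus at the cell surface, had 0.74 and Ifitm3 0.56.

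Of the 4 IFIT genes, whose proteins bind viral RNA, 3 had log2 fold changes above 0 and none passed the test. Ifit2 had 13.9, 9.61, 10.4, 10.7 and 11.7 CPM in WT mice and 8.94 to 13.7 CPM (median 10.9) in APP/PS1 mice. The ranges overlapped almost wholly, and its log2 fold change was -0.06 (SE 0.13). Ifit3 and Ifit3b, the pair with shared sequence, had 0.61 (SE 0.26) and 0.75 (SE 0.24), and Ifit1 had 0.33 (SE 0.26). In each of Ifit3 and Ifit3b the lowest APP/PS1 mouse, 19744, lay within or below the WT range.

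Of the cytosolic sensors, Ddx58 (RIG-I) varied least among WT mice, at 5.92, 5.56, 5.91, 5.80 and 5.84 CPM, and was at 5.85 to 10.1 CPM (median 7.02) in APP/PS1 mice. Its log2 fold change was 0.36 (SE 0.18, adjusted p = 0.373, edgeR), that of Dhx58 (LGP2) 0.44 and that of Ifih1 (MDA5) -0.04. The modifier Isg15 and its protease Usp18, which also dampens the receptor, had 0.19 and 0.46. Usp18 was at 1.07, 1.67, 1.16, 1.25 and 1.76 CPM in WT mice and at 0.882 to 3.02 CPM (median 1.98) in APP/PS1 mice, so that the APP/PS1 range took in the whole WT range.

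The 3 oligoadenylate synthetases and the 6 GTPases had 9 of 9 log2 fold changes above 0, from 0.24 (Igtp) to 0.49 (Irgm1), and 0 of 9 passed the test. Oasl2, of the OAS-like branch of the family, was at 4.38, 5.83, 5.67, 3.35 and 5.17 CPM in WT mice and at 2.76 to 11.1 CPM (median 5.74) in APP/PS1 mice. Its spread in APP/PS1 mice took in the whole WT range, and its log2 fold change was 0.39 (SE 0.30, adjusted p = 0.581, edgeR). Irgm1, an immunity-related GTPase that acts on the membranes of phagosomes, was at 9.23, 9.83, 7.38, 8.95 and 7.75 CPM in WT mice and at 8.70 to 16.01 CPM (median 11.6) in APP/PS1 mice (SE 0.17, adjusted p = 0.203, edgeR).

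In the Schlafen family only Slfn8 passed the test, while the log2 fold change was 0.50 (SE 0.32) for Slfn2 and -0.10 (SE 0.16) for Slfn5. Slfn5 was at 13.01, 12, 12.5, 9.80 and 11.2 CPM in WT mice and at 8.29 to 13.2 CPM (median 11.2) in APP/PS1 mice. Whether Slfn8 differed from its relatives was not tested. Parp9 and Parp14, of the ADP-ribosyltransferase family, had 0.46 and 0.33, with Parp14 at 4.85, 6.06, 5.12, 4.30 and 4.60 CPM in WT mice and at 3.997 to 8.56 CPM (median 6.12) in APP/PS1 mice.

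Among the other 8 genes, Lgals3bp was the only one called, and 7 of 8 had log2 fold changes above 0. Trim30a, a mouse TRIM protein that restrains NF-κB signalling, had 0.67 (SE 0.26) and Rtp4, a chaperone of receptor transport, 0.52 (SE 0.26). Rsad2 (viperin), a classical interferon target, had the lowest value of all, -0.24 (SE 0.33), with the highest level of all 17 mice in a WT mouse (5.73 CPM). Xaf1 ranged from 4.70 to 21.04 CPM in APP/PS1 mice, 7.67 to 17.04 CPM in WT mice and, with neuronal FT deleted, 7.70 to 17.95 CPM, and its order of mice differed from that of most of the other genes, being low in mouse 16975 (8.44 CPM).

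The comparison of APP/PS1/FTnKO with APP/PS1 mice asked what loss of neuronal FT does on the amyloid background. None of the 40 genes passed the test by edgeR, while 0.184% of all genes were higher and 0.144% lower. The smallest adjusted p of the 40 was 0.362 (Stat2, edgeR). DESeq2 called none either, but it gave no adjusted p for Slfn8, Slfn2, Ifi27l2a, Isg15, Usp18, Oas1a, Mx1 and Ifi44. The log2 fold change was below 0 for 32 of the 40 genes, against 50.5% of all genes, with a median of -0.11 and a range from -0.54 (Slfn8) to 0.25 (Rsad2). At an unadjusted p under 0.05, 2 genes (5%) were lower, Stat2 and Samd9l, against 5.69% of all genes, and 0 were higher, against 5.82%. None of the 40 had groups without overlap, which 0.597% of all genes showed upwards and 0.373% downwards. The median rests on few mice: without APP/PS1 mouse 16975 it was 0.0017, with 20 of the 40 genes on either side of 0, and without APP/PS1 mouse 19744 it was -0.23.

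By gene, Lgals3bp had a log2 fold change of -0.33 (SE 0.23, adjusted p = 0.627, edgeR) in APP/PS1/FTnKO against APP/PS1 mice, and Slfn8 -0.54 (SE 0.41, adjusted p = 0.664, edgeR), which became 0.04 without mouse 16975. Stat2 had -0.17 (SE 0.0714), with 38.6 to 45.9 CPM (median 44.0) in APP/PS1/FTnKO mice. Samd9l, an antiviral protein that restrains cell growth, had -0.29 (SE 0.13), with 4.35 to 6.27 CPM (median 6.15) in APP/PS1/FTnKO, 5.46 to 8.24 CPM (median 7.13) in APP/PS1 and 5.22 to 7.75 CPM (median 6.78) in WT mice. Trim30a had -0.39 (SE 0.24) and Ifitm3 -0.34 (SE 0.19). The 6 GTPase genes went both ways, from -0.19 to 0.13, and the 3 sensors tested lay between -0.09 and -0.0015. A p above the threshold does not show equal levels: the standard errors of 0.0714 to 0.476 leave differences of that order and larger ones undetected. Stat2, for example, was not called at -0.17 with an SE of 0.0714 (adjusted p = 0.362, edgeR).

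In APP/PS1/FTnKO against WT mice, 0 of the 40 genes passed the test by edgeR, against 2.22% of all genes higher and 1.65% lower, and the smallest adjusted p was that of Lgals3bp, at 0.0632. By DESeq2 Lgals3bp was called (adjusted p = 0.0309), while Slfn8 and Mx1 were given no adjusted p. The log2 fold change was above 0 for 36 of 40 genes, against 51.3% of all genes, with a median of 0.25, and at an unadjusted p under 0.05, 7 genes (17.5%) were higher, against 11.3% of all genes, and 0 were lower, against 10.9%. Slfn8 had 1.57 (SE 0.52, adjusted p = 0.0919, edgeR) and was the only one with groups without overlap. That is 2.5% of the 40 upwards and 0 downwards, against 2.75% and 2.85% of all genes. The gap was narrow, from 0.427 CPM in WT mouse 19101 to 0.435 CPM in APP/PS1/FTnKO mouse 19720, and all 5 WT mice were under the level of the filter. Lgals3bp had 0.85 (SE 0.25), Ifi27l2a 0.84 (SE 0.46), Bst2 0.61 (SE 0.25) and Gbp3 0.53 (SE 0.23). Both comparisons with WT use the same 5 WT mice. The unadjusted count of 7 was 3 to 10 with each mouse left out, with 3 or 4 without APP/PS1/FTnKO mouse 16974 or 19394 or WT mouse 18944, 19718 or 19721. It was 2 (5%) with RIN as a covariate, against 8.76% of all genes, and 1 (2.5%) was then lower, against 8.78%. Without the mice with a RIN under 8 it was 3 (7.5%), against 9.2%, and 0 were lower, against 9.45%. The share of the 40 genes was then below that of all genes in both settings.

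Within the genotypes with transgenes the mice differed more than the genotypes did, and mostly in the same genes. The mean of the 40 genes, as log2(CPM + 0.5) minus the mean of the 5 WT mice, was -0.0045, 0.12, 0.10, -0.13 and -0.08 in WT mice 18944, 19053, 19101, 19718 and 19721. In APP/PS1 mice it was 0.73 in 16975, 0.71 in 19723, 0.35 in 19554, 0.24 in 19553, 0.09 in 19619 and -0.23 in 19744. With neuronal FT deleted it was 0.50 in 18943, 0.49 in 16974, 0.20 in 19394, 0.20 in 19720, 0.0024 in 19722 and -0.03 in 18973. So the lowest mouse of all was an APP/PS1 mouse, and 4 mice with transgenes lay within the range of the WT mice or below it.

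**Figure D3:**
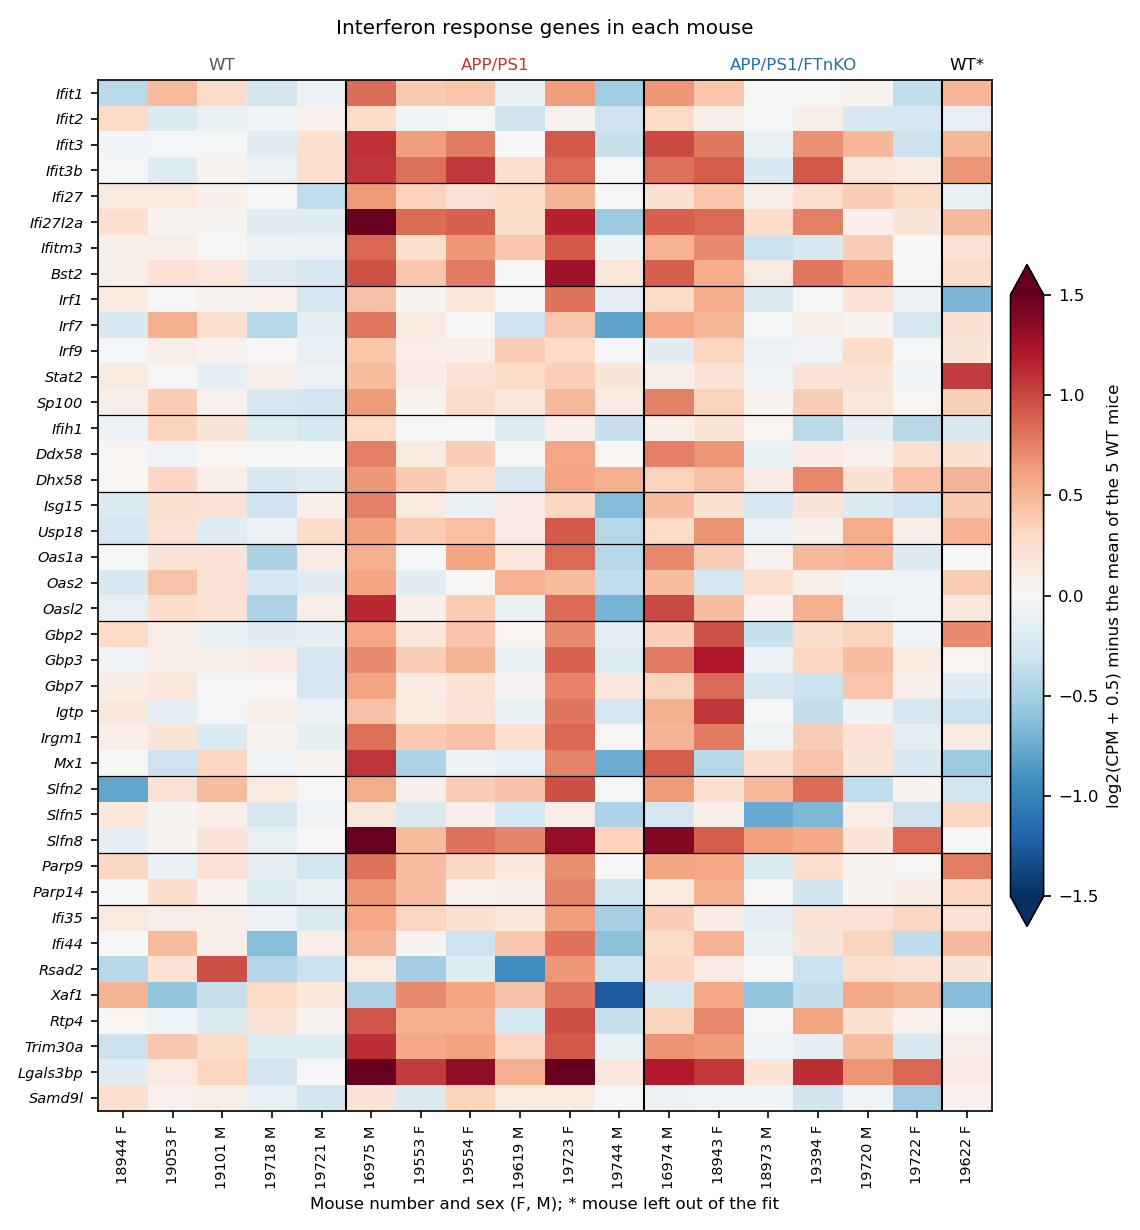
Level of the 40 tested genes (rows, by role) in each mouse (columns), as log2(CPM + 0.5) minus the mean of the 5 WT mice, with colours ending at 1.5 in either direction and WT mouse 19622 at the right. Most genes are above the WT mean in mice 16975 and 19723 (APP/PS1) and in mice 16974 and 18943 (APP/PS1/FTnKO), whereas most are below it in APP/PS1 mouse 19744.

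Mouse 16975 was the highest APP/PS1 mouse for 22 of the 40 genes and mouse 19723 for 17, while mouse 19744 was the lowest for 32. Mouse 16975 was among the highest 2 APP/PS1 mice for 38 of the 40 genes, against 38.7% of all genes, and mouse 19723 for 36, against 34.1%. Among APP/PS1/FTnKO mice, mouse 16974 was the highest for 19 genes and mouse 18943 for 15, the latter for 5 of the 6 GTPase genes, such as Gbp3 at 13.2 CPM and Igtp at 9.89 CPM. The exception was Mx1, of which mouse 18943 had 5 reads, the fewest of the 6 APP/PS1/FTnKO mice. The median over the 40 genes of the ratio between the highest and the lowest mouse was 1.53 for WT, 2.29 for APP/PS1 and 1.98 for APP/PS1/FTnKO mice, and the largest was 14.3, for Ifi27l2a in APP/PS1 mice. The SD of log2(CPM + 0.5) was larger in APP/PS1 than in WT mice for 35 of the 40 genes (87.5%), and it was so for 69.9% of all genes.

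RIN moved with these levels. The 4 highest APP/PS1 mice had a RIN of 7.7 (16975), 8.3 (19723), 7.9 (19554) and 8.1 (19553), and the 2 lowest had 8.7 (19619) and 8.6 (19744). Of the APP/PS1/FTnKO mice the 2 highest had 8.4 (18943) and 7.6 (16974), and the other 4 had 8.6 or 8.7. With RIN as a covariate the median log2 fold change of the 40 genes in APP/PS1 against WT mice was 0.10, with 30 of 40 above 0, against 49.2% of all genes. None of the 40 was then called, against 0.459% of all genes called higher, and at an unadjusted p under 0.05, 4 (10%) were higher, against 4.59% of all genes, and 1 (2.5%) was lower, against 3.81%. Slfn8 then had 1.27 (adjusted p = 0.403, edgeR) and Lgals3bp 0.69 (adjusted p = 0.256, edgeR). Without the 3 mice with a RIN under 8 the median was 0.24, with 33 of 40 above 0, against 49.1% of all genes, and 0 of the 40 were called. At an unadjusted p under 0.05, 6 of 40 (15%) were then higher and 0 lower, against 5.17% and 4.08% of all genes. The median RIN of the 6 mice was 8.7 for WT, 8.2 for APP/PS1 and 8.6 for APP/PS1/FTnKO, so RIN was lower mainly in APP/PS1 mice. Its part and that of the genotype cannot be fully told apart.

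Microglial genes moved with them too. The summed level of 12 genes of plaque-associated microglia was 175 to 210 CPM for WT, 286 to 621 CPM for APP/PS1 and 241 to 505 CPM for APP/PS1/FTnKO mice, and 11 of the 12 were higher than in WT in each. Mouse 19744 had the lowest APP/PS1 sum (286 CPM) and mouse 16975 the highest (621 CPM), and mouse 18973 had the lowest APP/PS1/FTnKO sum (241 CPM) and mouse 18943 the highest (505 CPM). The sum of 10 homeostatic microglia genes reached 407 to 466 CPM with the WT genotype, 520 to 829 CPM in APP/PS1 mice and 397 to 627 CPM with neuronal FT deleted. Of these 10, 5 were higher in APP/PS1 and 2 in APP/PS1/FTnKO than in WT mice, against 1.32% and 2.22% of all genes. These calls depended on RIN: with it as a covariate 1 of 10 was called in each, and without the mice under a RIN of 8, 2 and 1. The plaque-associated genes called were then 9 and 11 of 12 with the covariate, and 11 and 10 without those mice. The part of microglia in the levels of the interferon response genes was not tested. APP/PS1/FTnKO mouse 19722 had a plaque-associated sum of 464 CPM with a mean of the interferon response genes at the WT level.

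**Figure D4:**
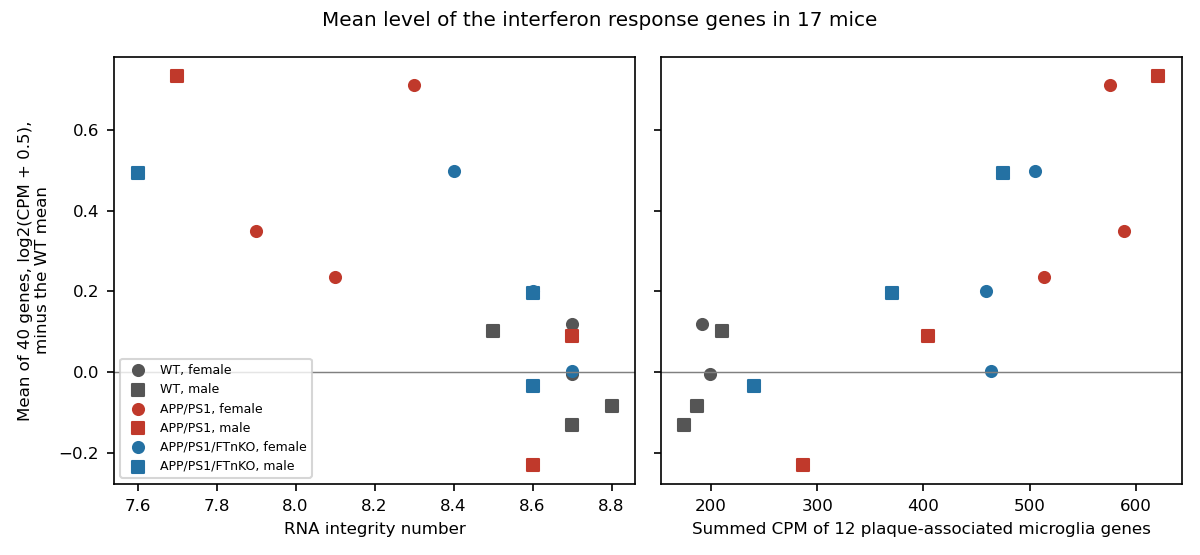
Mean of the 40 genes in each of 17 mice, as log2(CPM + 0.5) minus the WT mean, against RIN (left) and against the summed CPM of 12 genes of plaque-associated microglia (right), coloured by genotype, with females as circles and males as squares. The 4 mice above 0.4 have a RIN of 7.6 to 8.4 and sums of 475 to 621 CPM, and WT mice have a RIN of 8.5 to 8.8 and sums of 175 to 210 CPM.

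Markers of other cell types that can respond to interferon were read in the same way. Of 8 endothelial markers 0 were called in any comparison (by DESeq2 0, and at an unadjusted p under 0.05 only 1, with neuronal FT deleted against APP/PS1), with sums of 358 to 434 CPM for WT, 352 to 454 CPM for APP/PS1 and 288 to 448 CPM for APP/PS1/FTnKO mice. Of 9 genes of monocytes and macrophages 7 were tested and 0 were called by edgeR, by DESeq2 or at an unadjusted p under 0.05, with sums of 7.86 to 11, 6.996 to 12.5 and 5.62 to 13.2 CPM in the same order. Within the genotypes with transgenes the endothelial sum moved with the interferon response genes in part. It was 451 and 454 CPM in APP/PS1 mice 16975 and 19723 but 354 and 352 CPM in mice 19744 and 19619. In APP/PS1/FTnKO mice it was 448 and 408 CPM in 18943 and 16974 but 338 and 348 CPM in 18973 and 19722. Yet the lowest sum, 288 CPM, was in mouse 19394, whose mean of the 40 genes was 0.20. Mouse 19720, whose mean was also 0.20, had a sum of 433.5 CPM, above mouse 16974. Of 8 astrocyte markers 1, Gfap, was higher than in WT in each genotype with transgenes by edgeR (2 by DESeq2 and 3 at an unadjusted p under 0.05 in APP/PS1 mice, and 1 by either measure in APP/PS1/FTnKO mice). Their sums were 4183 to 5040 CPM for WT, 4443 to 6247 CPM for APP/PS1 and 4432 to 5789 CPM for APP/PS1/FTnKO mice. The astrocyte sum moved with the interferon response genes in part. It was highest in APP/PS1 mice 16975 (6247 CPM) and 19723 (5903 CPM) and APP/PS1/FTnKO mouse 16974 (5789 CPM), and lowest in mice 19619 (4443 CPM) and 18973 (4432 CPM) of these genotypes. However, mouse 19744, with the lowest mean of the 40 genes, had 4691 CPM, above mouse 19619. Likewise, APP/PS1/FTnKO mouse 19720 had 5541 CPM, above mouse 18943 (5390 CPM), whose mean of the 40 genes was higher. The part of endothelium and astrocytes in the levels of the 40 genes was not tested. Neutrophil genes summed to at most 2.91 CPM in any mouse, with Ly6g at 0 in all 17 mice.

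Among the other genes of the pathway, 69 of 98 were tested. In APP/PS1 against WT mice 4 of the 69 (5.8%) were higher, against 1.32% of all genes, and 0 were lower: Irf8, a factor of microglia and myeloid cells, Irf5, which acts below Toll-like receptors, Tlr7, a sensor of single-stranded RNA, and Stat3, which carries signals of interleukin-6 type cytokines. The 5 WT mice had 4 to 6.39 CPM of Irf8, the 6 APP/PS1 mice 8.17 to 19.6 CPM and the 6 APP/PS1/FTnKO mice 7.30 to 16.9 CPM. Its log2 fold change was 1.54 (SE 0.22, adjusted p = 7.32e-04, edgeR) in APP/PS1 and 1.22 (SE 0.22, adjusted p = 0.00576, edgeR) in APP/PS1/FTnKO against WT mice. Irf5 had 0.96 (adjusted p = 0.0133, edgeR), Tlr7 0.81 (adjusted p = 0.0197, edgeR) and Stat3 0.39 (adjusted p = 0.00442, edgeR) in APP/PS1 against WT mice. With RIN as a covariate only Irf8 of the 4 was called. Of 39 further interferon-induced genes tested, 0 were called by edgeR or DESeq2 in any comparison, and in APP/PS1 against WT mice 8 of the 39 (20.5%) were higher and 0 lower at an unadjusted p under 0.05, against 7.91% and 6.05% of all genes. Of the 4 receptor and 3 kinase genes 0 were called by either tool in that comparison, with 1 kinase gene (Tyk2, 0.23) higher and 1 (Jak1, -0.13) lower at an unadjusted p under 0.05.

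In APP/PS1/FTnKO against APP/PS1 mice 0 of the 69 were called by edgeR, against 0.184% of all genes higher and 0.144% lower. At an unadjusted p under 0.05, 1 of the 69 (1.45%) was higher and 4 were lower, against 5.82% and 5.69% of all genes. Against WT, APP/PS1/FTnKO mice had Irf8 and Irf5 higher, that is 2 of the 69 (2.9%) against 2.22% of all genes, and Traf3 lower (1 of 69, or 1.45%, against 1.65%), an adaptor on the way from the sensors to interferon, with a log2 fold change of -0.21 (SE 0.0522, adjusted p = 0.0315, edgeR). Levels of Traf3 were 66.9 to 76.6 CPM for WT, 67.4 to 75.8 CPM for APP/PS1 and 57.5 to 68.02 CPM for APP/PS1/FTnKO mice. Its value in APP/PS1/FTnKO against APP/PS1 mice was -0.20 (adjusted p = 0.0986 by edgeR and 0.0147 by DESeq2, the only one of the 69 called by DESeq2 there, and the only one called by edgeR with RIN as a covariate). Without the mice under a RIN of 8, Traf3 was not called in that comparison. In APP/PS1/FTnKO against WT mice, Irf8 alone was called with RIN as a covariate, and also without the mice under a RIN of 8. The calls of Irf5 and Traf3 were lost in both settings. With each of the 17 mice left out in turn, Irf8 was called against WT 17 times in each genotype with transgenes, whereas in APP/PS1/FTnKO mice Irf5 was called 7 times and Traf3 9 times. By DESeq2, Stat3 (adjusted p = 0.014 by DESeq2 and 0.0501 by edgeR) and Tlr7 (adjusted p = 0.0324 by DESeq2 and 0.0716 by edgeR) were also higher in APP/PS1/FTnKO than in WT mice. For Tlr7 these groups did not overlap, with 2.35 to 3.67 CPM in WT and 3.71 to 5.67 CPM in APP/PS1/FTnKO mice. Of all genes, 2.75% showed such a separation upwards. In APP/PS1 against WT mice, Tlr7 was not called without APP/PS1 mouse 19554 or WT mouse 18944, 19053 or 19718, and Irf5 was not called without WT mouse 19053.

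The sexes were compared by the interaction of sex and genotype, with 3 mice per sex and genotype, apart from the 2 female WT mice left without 19622. For APP/PS1 against WT and for APP/PS1/FTnKO against APP/PS1 mice, 0 of the 40 genes were called by edgeR or DESeq2 and 0 had an unadjusted p under 0.05 by either, against 4.05% and 3.32% of all genes by edgeR. Without APP/PS1 mouse 16975 none was called either, but 4 genes in the former comparison (10%, against 5.96% of all genes) and 7 in the latter (17.5%, against 8.08%) had an unadjusted p under 0.05, with Ifit3, Lgals3bp and Rtp4 in both. With so few mice of each sex, this does not show that the sexes respond alike.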

How the data were processed

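Reads of stranded mRNA libraries (150-bp paired-end) had been trimmed by the authors (Trimmomatic 0.33) and mapped to GRCm38 (HISAT2 2.1.0), and raw counts per gene from featureCounts were deposited. How featureCounts was set for strand and multi-mapping reads, and on which annotation, is not given in the sources at hand, so genes that overlap or share sequence are uncertain. The test was edgeR's (version 4.0.16, R 4.3.3): TMM scaling, filterByExpr with a minimum count of 10, genotype plus sex in a single fit of 17 mice, a quasi-likelihood test and Benjamini-Hochberg adjustment over 17414 genes at 0.05. All p-values measure the spread between mice. CPM use the TMM library sizes, and RPKM also the GENCODE M21 exon length, a release that held 99.4% of the gene IDs. Genes given in every mouse are those called and the most abundant of each role; others were named after their values were seen. DESeq2 1.42.0, limma 3.58.1 (voom) and other settings were alternatives, and the tools were tested on simulated data. The members and lists were chosen with earlier results of these data known. Total counts were at least 15925432 per mouse, but counting error is not small for genes with few reads. Examples are Isg15, with 11 to 41 reads per mouse, and Oas1a, with 10 to 38. The table had 0 unused columns.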

Additional observations from a re-analysis of the deposited data

Results flagged for a closer look

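Of 48 sets of 5 or 6 mice tested for a single mouse far from the others, 3 were marked, and chance alone marks about 1 in 20. Slfn8 was at 3.66 CPM in APP/PS1 mouse 16975, with the next APP/PS1 mouse at 1.51 CPM. Among the WT mice, mouse 19622 stood apart with Stat2 at 83.2 CPM, the next WT mouse being at 44.0 CPM, and with Ddx58 at 6.90 CPM, the next being at 5.92 CPM. Mouse 19622 entered no main comparison, and its mean over the 40 genes was 0.17 above the mean of the other WT mice on the log2(CPM + 0.5) scale.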

How the results depend on the processing

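No paired analysis was possible because the labels give each mouse a number of its own, none shared across genotypes, and name no litters. The 2 genes called in APP/PS1 against WT mice became 1 (Lgals3bp) with limma-voom and with a stricter filter, which left Slfn8 untested. The count was 4 with no filter. It was 0 with RIN as a covariate, without the mice under a RIN of 8 (chosen after seeing the data) and with only the genotypes compared. With each mouse left out, 0 to 4 were called. For APP/PS1/FTnKO against WT mice, the 0 called genes became 1 with DESeq2, 2 with no filter and 2 with only the genotypes compared, and 0 to 2 with each mouse left out. For APP/PS1/FTnKO against APP/PS1 mice 0 were called in every setting tried. The median log2 fold change was 0.22 to 0.43, -0.23 to 0.0017 and 0.15 to 0.33 with each mouse left out, in the order APP/PS1 against WT, APP/PS1/FTnKO against APP/PS1 and APP/PS1/FTnKO against WT, and 0.10, -0.02 and 0.09 with RIN as a covariate.

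With RIN as a covariate 6, 10 and 6 of the 40 genes turned in sign in the 3 comparisons, and without the mice under a RIN of 8 it was 3, 6 and 5. The values that follow are for the 11 genes followed through the settings, with Slfn8 missing from the stricter filter, which it did not pass. Slfn8 and Lgals3bp kept their sign against WT in every setting in which they were tested. In APP/PS1 against WT mice Oasl2 had -0.21 with RIN as a covariate. In APP/PS1/FTnKO against APP/PS1 mice Oasl2 had 0.028 with limma-voom, 0.22 with RIN as a covariate and 0.059 without the mice under a RIN of 8, and Ddx58 had 0.11 with RIN as a covariate. In APP/PS1/FTnKO against WT mice Ifit2 had 0.022 and Stat2 -0.12 with all 18 mice, Ifit2 0.000333 with the stricter filter, and Parp14 -0.011 with RIN as a covariate. With each mouse left out, Ifit2 ranged from -0.16 to 0.039, from -0.026 to 0.14 and from -0.091 to 0.089 in the 3 comparisons, and in APP/PS1/FTnKO against APP/PS1 mice Slfn8 ranged from -0.75 to 0.040, Ifi27 from -0.13 to 0.012, Ddx58 from -0.15 to 0.10, Usp18 from -0.28 to 0.022 and Oasl2 from -0.23 to 0.25. The cause was not tested.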
